A study of Mus musculus with 8 samples.

Results

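Low-signal clusters were groups of neighbouring HpaII sites in liver DNA that gave few but not zero HpaII tags. They were chosen by their own values: autosomal CCGG sites listed in all 8 samples with at least 10 tags in the MspI reference were joined where gaps were at most 500 bp, and clusters of 5 to 19 sites with a mean m-score from 10 to below 25 over sites and samples were kept. Of 20674 autosomal clusters with at least 5 sites, 2358 (11.4%) met this rule, and they held 14182 of the 901212 sites used. The DNA came from livers of C57BL/6J mice, an inbred strain. Of the mice, 4 had eaten a high-fat diet with lingonberries (lingonberry) and 4 the high-fat diet alone (HFD), so the fat-rich diet was common to both groups and no group was on ordinary chow. The labels give neither age nor sex nor the length of feeding.

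HpaII cuts CCGG only where the inner CpG is unmethylated, and MspI cuts it in either state, so HELP-tagging, which sequences a short tag from each cut end, reads unmethylated sites as HpaII tags relative to MspI tags. The m-score expresses that relation as an angle from 0, where a site had no HpaII tag, to 100, where it had no MspI tag: low scores are the methylated end. In mammals most CpGs are methylated, while dense CpG stretches at promoters (CpG islands) usually are not. CpG islands that are methylated in somatic tissue are known at promoters of germ-line genes and within gene bodies. In bulk liver, a few unmethylated copies among many methylated ones in every cell type and full loss of methylation in a rare cell type cannot be told apart.

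Of these clusters, 6 lay at a promoter that could be placed by its pattern of CCGG sites, and the sequences of 4 are shown to let the site spacing be seen. Hormad1, a protein of meiotic chromosome axes, and Dmrtb1, a DM-domain transcription factor of the male germ line, belong to the germ-line gene list. Lep encodes leptin, the hormone by which fat cells report energy stores, and Gm16254, a long non-coding RNA gene, had the largest diet difference of the 6. The windows come from RefSeq, build GRCm38.p6, with capitals marking CCGG. They are chr3:95559427-95559726 on the plus strand for Hormad1, chr4:107683540-107683839 on the minus strand for Dmrtb1, chr6:29059971-29060270 on the plus strand for Lep and chr10:7608626-7608925 on the minus strand for Gm16254. Each runs from 250 bases before the annotated start to 50 after it.
Hormad1: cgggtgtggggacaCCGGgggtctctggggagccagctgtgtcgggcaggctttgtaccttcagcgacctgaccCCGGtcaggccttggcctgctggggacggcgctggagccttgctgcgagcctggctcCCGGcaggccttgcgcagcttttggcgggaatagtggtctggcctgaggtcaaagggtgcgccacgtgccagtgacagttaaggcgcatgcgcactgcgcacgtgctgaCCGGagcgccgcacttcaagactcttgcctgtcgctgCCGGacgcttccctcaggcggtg
Dmrtb1: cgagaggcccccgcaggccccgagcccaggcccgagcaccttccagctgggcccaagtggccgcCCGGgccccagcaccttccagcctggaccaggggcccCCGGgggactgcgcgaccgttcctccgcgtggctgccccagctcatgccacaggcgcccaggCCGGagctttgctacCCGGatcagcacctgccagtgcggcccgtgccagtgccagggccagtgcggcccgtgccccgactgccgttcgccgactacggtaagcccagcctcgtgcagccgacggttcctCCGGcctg
Lep: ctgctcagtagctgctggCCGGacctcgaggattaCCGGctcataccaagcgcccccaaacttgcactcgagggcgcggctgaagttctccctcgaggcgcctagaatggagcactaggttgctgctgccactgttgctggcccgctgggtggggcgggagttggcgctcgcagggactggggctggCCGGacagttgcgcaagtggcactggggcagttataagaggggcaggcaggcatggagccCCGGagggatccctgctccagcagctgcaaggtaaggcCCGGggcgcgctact
Gm16254: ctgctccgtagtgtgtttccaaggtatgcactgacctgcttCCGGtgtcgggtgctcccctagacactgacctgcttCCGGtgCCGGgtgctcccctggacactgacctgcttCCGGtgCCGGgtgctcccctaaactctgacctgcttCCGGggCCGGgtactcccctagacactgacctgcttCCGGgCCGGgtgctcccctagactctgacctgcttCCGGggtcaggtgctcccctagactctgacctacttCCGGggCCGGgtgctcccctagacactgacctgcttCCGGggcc

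The windows differ in how their CCGG sites are arranged. Hormad1, Dmrtb1 and Lep hold 5 CCGG sites each, spread over the window, and the Gm16254 window holds 13. In Gm16254 the 13-base unit gacctgcttCCGG occurs 7 times within the 300 bases, and it occurs in none of the other 5 windows. Of all 32851 promoter windows of 300 bases in the table, 13.3% hold at least 4 CCGG sites. The windows were also searched on both strands for exact letters. These were the E-box CACGTG, the E2F-type motif GGCGGGAA, the TATA box form TATAAA, the GC box GGGCGG and the C/EBP palindrome TTGCGCAA. TATAAA was in 13.6% of all windows and in none of the 6. Near forms, such as the tataag of the Lep window, were not counted. A match to the searched letters describes the sequence only, and the lack of one does not exclude a near form.

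Depth differed between libraries, and it sets how finely a low score can be read. Over the 1310003 sites listed in all samples, the lingonberry libraries held 16060380, 9961952, 6104751 and 10196666 HpaII tags, against 7018541, 6511377, 5858601 and 7411193 in the HFD libraries. The deposited scores rest on 1 MspI reference of 29675790 tags, scaled to each library. At the median site of the low-signal clusters, which had 27.0 MspI tags, a single HpaII tag was therefore worth an m-score of 4.35, 7.0, 11.4 and 6.84 in the lingonberry libraries and 9.90, 10.7, 11.8 and 9.38 in the HFD libraries. Tags are PCR copies without molecular identifiers, so depth covers counting error only. The design text gives 4 animals per diet, p-values rest on the spread among those 8 livers, and the labels give no batch.

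The low-signal clusters were short. Of the 2358, 1236 had 5 sites, 578 had 6 and 265 had 7, and the median span was 930 bp (quartiles 712 and 1201 bp). They made up 21.9% of all clusters of 5 sites, 15.6% of those of 6 or 7, 5.44% of those of 8 to 10 and 1.29% of those of 11 to 19 sites. Their sites lay less densely than those of other clusters of 5 to 19 sites, with a median of 5.04 sites per kb, against 5.73 in methylated clusters (mean m-score below 10, 2363 clusters), 7.27 in intermediate clusters (25 to below 75, 10393 clusters) and 9.63 in unmethylated clusters (75 or above, 4510 clusters). These densities count HpaII sites and not CpGs: CpG content was measured only in the promoter windows. By chromosome, the low-signal clusters were between 9.22% of the clusters of 5 to 19 sites (chromosome 3) and 14.3% (chromosome 4).

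The signal itself was a matter of a few tags. A low-signal cluster had a median of 114 HpaII tags summed over all its sites and 8 livers (quartiles 81 and 161), or 2.48 tags per site and sample. The same value was 0.643 in methylated, 25.2 in intermediate and 35.5 in unmethylated clusters. MspI tags, which show whether a site can be read at all, were alike in the low-signal and methylated clusters, at a median of 30.0 and 30.8 tags per site, and stood at 36.2 in unmethylated clusters. Tags shared between several sites, the mark of repeated sequence, touched 566 sites of low-signal clusters (3.99%), against 6.97% of sites in methylated and 2.62% in unmethylated clusters.

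The tags were unevenly spread along a cluster. The site with the most tags held a median of 44.1% of a cluster's tags, close to the 45.8% in methylated clusters, where tags are few, and above the 21.7% in unmethylated clusters. The median m-score of the most open site was 39.6 and that of the lowest site 2.03, and the SD between sites of a cluster was 14.3 (median), against 4.52 in methylated, 16.3 in intermediate and 9.13 in unmethylated clusters. The rule fixes the mean of a cluster but not this split, although a mean below 25 limits how many sites can be open.

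Site by site, 42.9% of the sites in low-signal clusters had a mean m-score below 10, 33.1% lay between 10 and 25, 19% between 25 and 50 and 5.03% at 50 or above. Only 0.585% reached 75, where sites count as unmethylated. No tag at all was seen in any of the 8 livers at 5.70% of the sites, against 20.8% in methylated clusters. By cluster, 1704 (72.3%) had no site at 50 or above, 600 (25.4%) had 1, 49 had 2 and 5 had 3 or more. In 315 clusters (13.4%) every site stayed below 25.

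**Figure D1:**
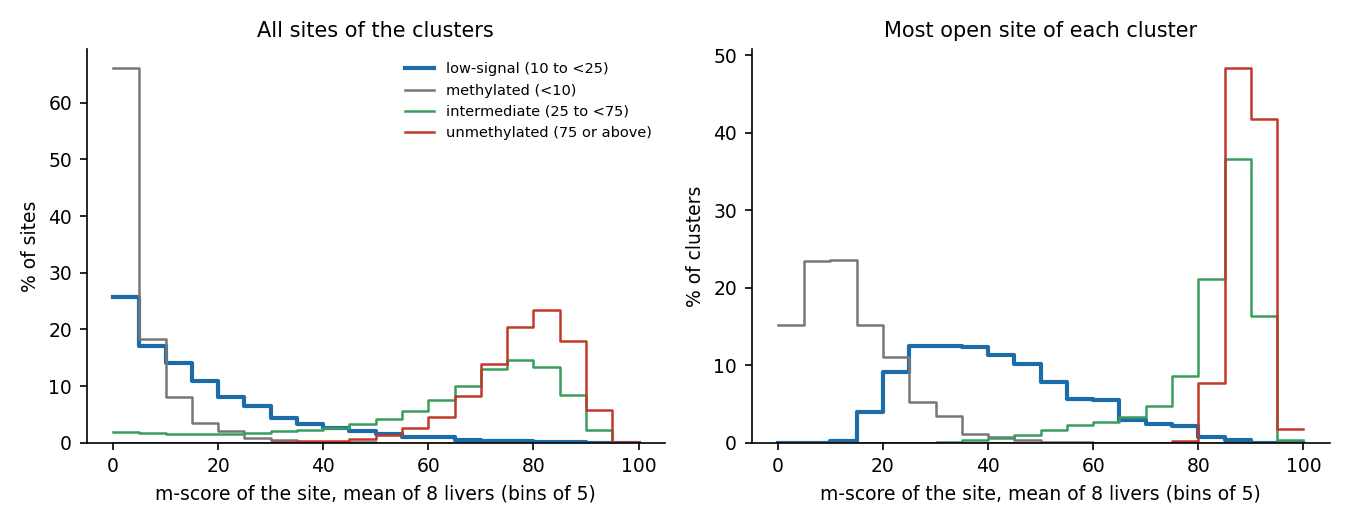
Share of sites (left) and of clusters by their most open site (right) against the m-score, the mean of 8 livers in bins of 5, for the 2358 low-signal clusters and for methylated, intermediate and unmethylated clusters of 5 to 19 sites. Sites of low-signal clusters tail off from the methylated end without a second peak, and their most open sites lie mostly between 20 and 60; the class limits were set on the cluster mean.

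An open site was more common higher in the score range. A site at 75 or above was found in 6 of the 905 clusters with a mean of 10 to 15 (0.663%), in 27 of the 793 with 15 to 20 (3.4%) and in 49 of the 660 with 20 to 25 (7.42%). A higher mean makes such a site more likely by construction. End sites were somewhat more open than inner ones. The most open site was an end site in 992 clusters (42.1%), while end sites made up 34.9% of a cluster's sites on average over clusters. End sites averaged 17.7 with lingonberries and 19.12 with HFD, the next sites inward 15.9 and 16.6, and the third sites 15.7 and 16.4. Methylated clusters had the same order, with 5.80, 4.80 and 4.47 from the end inward (mean of 8 livers). In unmethylated clusters the order was the other way, with 75.3 at end sites and 78.7 at the next sites inward (mean of 8 livers). End sites of low-signal clusters also had fewer MspI tags (mean 28.5, against 32.5 at the next sites), and its part in the profile was not tested.

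Flanking sites within 2000 bp had a median m-score of 17.7 beside low-signal clusters (quartiles 8.32 and 33.8), which is near that of the clusters themselves. It was 12.3 beside methylated and 37.4 beside unmethylated clusters. Of the 2358 clusters 355 had no flanking site, and in 1067 of the rest (53.3%) the flank was higher than the cluster. Within 2000 bp of an unmethylated cluster lay 36 (1.53%), near the 1.57% of methylated clusters, against 3.88% of the unmethylated clusters themselves.

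Averaged over the 2358 clusters, the m-score was 16.5, 15.5, 16.3 and 17.4 in the lingonberry livers, against 16.7, 17.3, 18.0 and 17.5 in the HFD livers. The lowest 3 values were lingonberry samples, but the lingonberry sample at 17.4 lay above 2 of the HFD samples, so the groups overlapped. The means were 16.4 ± 0.776 with lingonberries and 17.4 ± 0.538 with HFD (SD, n = 4 each), a difference of -0.957. No test was run on it, since the clusters had been chosen with earlier results known. It was -0.424 at sites with at least 50 MspI tags and -0.499 where clusters were rebuilt with gaps of at most 250 bp.

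As a share of each library, the low-signal clusters took 0.461%, 0.439%, 0.480% and 0.481% of the HpaII tags in lingonberry livers and 0.472%, 0.488%, 0.516% and 0.496% in HFD livers. This measure uses no MspI tags, and here 2 lingonberry samples lay within the HFD range. The share of member sites without a tag followed depth in part: it was 25.9%, 32.5%, 42.8% and 27.3% with lingonberries, lowest in the deepest library, and 36.4%, 36.1%, 37.2% and 34.4% with HFD. With all libraries thinned to the smallest, the difference of the mean m-score was -1.22.

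**Figure D2:**
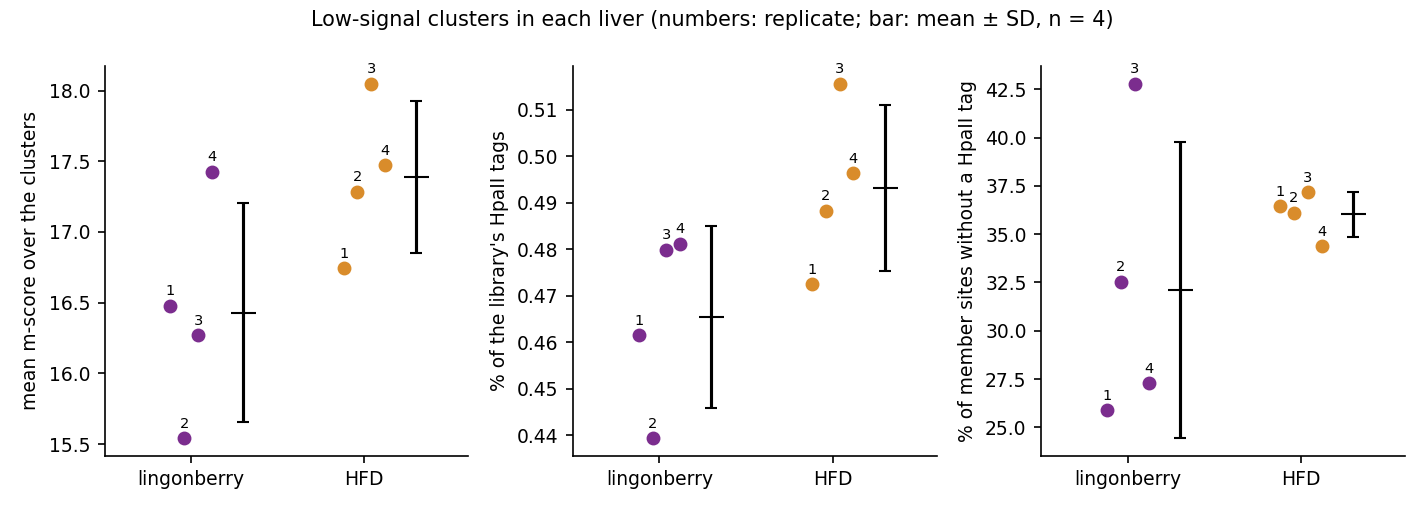
Mean m-score over the 2358 low-signal clusters, their percent of the library's HpaII tags and the percent of their sites without a tag, 1 numbered point per liver, lingonberry left and HFD right, with the mean and SD (n = 4) beside the points. The axes do not start at 0. The groups overlap in all 3 measures, and the lingonberry livers spread more widely in sites without a tag (25.9% to 42.8%).

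Between livers, the clusters kept only part of their order. Spearman correlations of the m-score across the 2358 clusters lay between 0.352 and 0.516 for the 6 pairs of lingonberry livers, 0.350 and 0.419 for the 6 HFD pairs and 0.319 and 0.480 for the 16 pairs of different diet. Over all pairs they lay between 0.385 and 0.496 in methylated clusters and between 0.278 and 0.483 in unmethylated ones, so this was not particular to low-signal clusters. In intermediate clusters, which span a wider range of scores, they lay between 0.781 and 0.860. The values are descriptions: all samples share the MspI reference, which can raise them, and clusters are not independent replicates. The spread of tags per cluster between livers of 1 diet was set against counting error as a chi-square per degree of freedom. Its median over clusters was 1.54 with lingonberries and 1.13 with HFD. It was 1.22 and 0.939 in methylated clusters, and 3.06 and 2.23 in unmethylated clusters. This median is not a ratio of variances. It can also rise with the tags counted, and more were counted in unmethylated clusters and in most lingonberry libraries.

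Most low-signal clusters scored lower with lingonberries. Of the 2358, 1418 (60.1%) had a lower mean m-score in lingonberry livers, and the median difference was -0.85 (quartiles -3.25 and 1.29), while the median standard error of a cluster's difference was 3.02. At sites with at least 50 MspI tags the median was -0.21, with 51.8% lower, and with gaps of at most 250 bp it was -0.49, with 55.0% lower. Over all 20674 clusters the median was 1.01 and 34.1% were lower. Methylated clusters had a median of -0.29, with 56.5% lower, and those of them scoring 5 to 10 had -0.715, with 59.0% lower. Intermediate clusters stood at 1.24 with 32.1% lower, and unmethylated ones at 1.49 with 20.4% lower. The difference between these classes was not tested. The mean difference over the low-signal clusters was below 0 on all 19 autosomes, which share the same 8 livers and are no independent evidence.

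**Figure D3:**
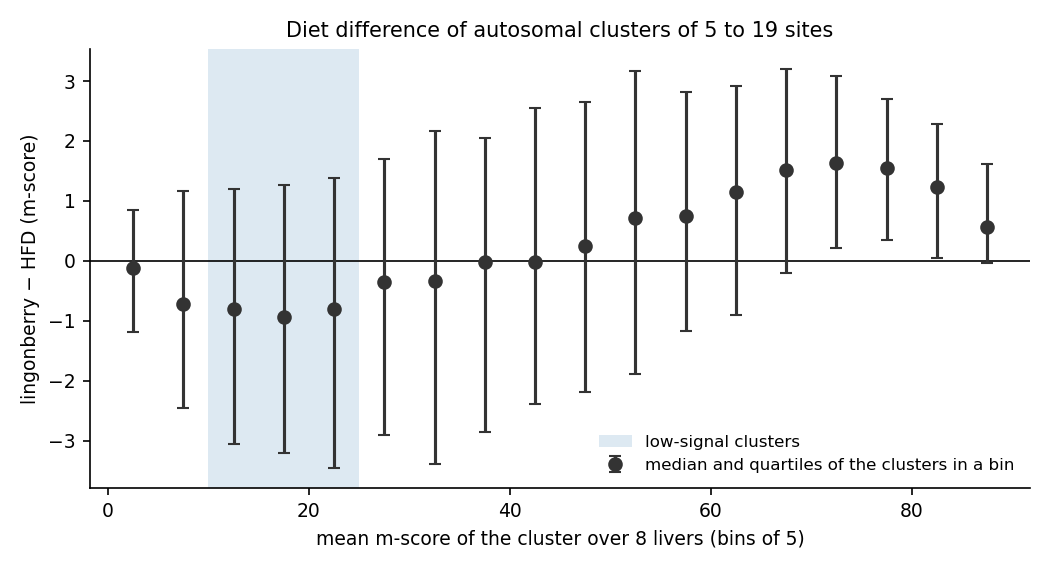
Difference in m-score, lingonberry minus HFD, of autosomal clusters of 5 to 19 sites against the cluster's mean m-score, with the median and quartiles of each bin of 5 and the low-signal range shaded. Medians are lowest within the shaded range, at -0.94 for scores of 15 to 20, and rise to 1.64 at 70 to 75. Below the range, the median is still -0.715 for scores of 5 to 10. In the shaded range the quartiles span 0.

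The differences were widest in the clusters of 5 to 7 sites. Means over clusters of 5 sites were 16.3 with lingonberries and 17.4 with HFD, over clusters of 6 or 7 sites 16.4 and 17.5, over clusters of 8 to 10 sites 16.9 and 17.3, and over the 58 clusters of 11 to 19 sites 17.0 and 17.0. The differences were -1.04, -1.03, -0.449 and -0.012. No trend over size was tested.

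No low-signal cluster was called between the diets. In limma, 0 of 20674 clusters passed an adjusted p of 0.05 (0% called), and none of the 2358 did. The smallest adjusted p was 0.604. At an unadjusted p below 0.05, 37 low-signal clusters (1.57%) were higher with lingonberries, against 6.32% of all clusters, and 133 (5.64%) were lower, against 1.86% of all clusters. In both directions together this made 170 (7.21%), below the 8.18% of all clusters. The balance between directions follows the shift of the median, and none of these clusters passed the correction.

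Tags without the MspI reference gave a like result. On log2(tags per 1000000 + 0.5) of the tags summed per cluster, the median difference over low-signal clusters was -0.08, against 0.09 over all clusters, and 1454 (61.7%) were lower with lingonberries. When tags were scaled to those within clusters in place of the whole library, both medians moved down, to -0.19 and -0.02, so the low-signal clusters stayed below the rest by about the same step. Again 0 of 20674 clusters passed the correction (0% called, smallest adjusted p in limma 0.355). At an unadjusted p below 0.05, 28 low-signal clusters (1.19%) were higher, against 11.1% of all clusters, and 130 (5.51%) lower, against 1.5% of all clusters. In both directions together this made 158 (6.7%), against 12.6%. With tags scaled to those within clusters, 13 low-signal clusters were higher and 203 lower at that threshold, and the smallest adjusted p in limma was 0.950.

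Single sites gave no call either. Of 416344 sites with at least 20 HpaII tags over the 8 livers, 5152 lay in low-signal clusters, and limma called 0 (0%) at an adjusted p of 0.05. At an unadjusted p below 0.05, 77 of the 5152 (1.49%) were higher with lingonberries, against 2.07% of all sites, and 139 (2.7%) were lower, against 3.52%. Together they were 216 (4.19%), against 5.59%. All 3 shares lay below those of all such sites, which include sites outside clusters. That background leans lower and that of all clusters leans higher, so the site shares cannot be set against the cluster shares.

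The 5 clusters with the smallest p in each direction give the size of difference that the data can hold without a call. Positions are on mm9. On chromosome 19, the cluster at 38206883 to 38207680 (5 sites) scored 10.4, 11.6, 12.2 and 11.98 with lingonberries, against 22.7, 24.1, 27.0 and 17.6 with HFD. The groups did not overlap, and the difference was -11.3 ± 2.47 (SE, limma, adjusted p = 0.604). The counts behind it were 17, 8, 5 and 7 tags with lingonberries, and 10, 11, 12 and 9 with HFD, although the lingonberry libraries were mostly deeper.

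On chromosome 4, the cluster at 46944182 to 46944972 lay inside Gabbr2, which encodes a subunit of the GABA-B receptor, 60011 bp downstream of its start. It scored 14.0, 8.04, 4.82 and 14.8 with lingonberries, against 31.4, 19.5, 27.4 and 19.96 with HFD. The groups were apart, with a difference of -14.1 ± 3.30 (SE, limma, adjusted p = 0.604) and of -1.08 on the log2 scale of tags (adjusted p = 0.355). The other lower clusters were on chromosome 11 at 34131302 to 34133103, with 17.6 ± 3.15 against 30.5 ± 3.90, on chromosome 10 at 61290466 to 61291675, with 8.16 ± 1.92 against 17.5 ± 3.39 (lingonberry against HFD, SD, n = 4 each), and the cluster of Gm16254, described with the promoters.

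Among the clusters that were higher with lingonberries, the one on chromosome 7 at 87733994 to 87734637 (5 sites) had scores of 25.5, 26.9, 27.0 and 19.5 with lingonberries, against 10.7, 13.6, 16.0 and 11.9 with HFD. The groups did not overlap, and the difference was 11.7 ± 2.59 (SE, limma, adjusted p = 0.604). Its log2 difference in tags was 0.31 ± 0.23 (SE, limma, adjusted p = 0.571), so tags alone set it apart less. The cluster on chromosome 2 at 84910302 to 84911093 (7 sites) scored 14.7 ± 3.86 with lingonberries and 6.93 ± 1.87 with HFD, and rested on 28, 28, 26 and 24 tags against 9, 7, 8 and 5. Its log2 difference of 1.01 was the largest of the 5. The other 3 were on chromosome 9 at 37174319 to 37175535, with 19.5 and 8.68, on chromosome 11 at 68400100 to 68400763, with 24.9 and 13.9, and on chromosome 15 at 101963394 to 101964092, with 16.8 and 8.73 (means with lingonberries and with HFD).

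All 10 were chosen for a small p, so that their groups do not overlap is no sign of stability. At sites with at least 50 MspI tags the differences on chromosomes 7, 19, 10 (at 7328430) and 11 (at 68400100) changed sign. At those sites the difference was -1.48 on chromosome 11 (at 34131302) and -2.60 on chromosome 10 (at 61290466), 8.01 on chromosome 2 and -13.1 in Gabbr2. The clusters on chromosomes 9 and 15 gave no value there. Such values leave out all other sites of a cluster, so a changed sign is not a reversal of the whole cluster's difference.

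**Figure D4:**
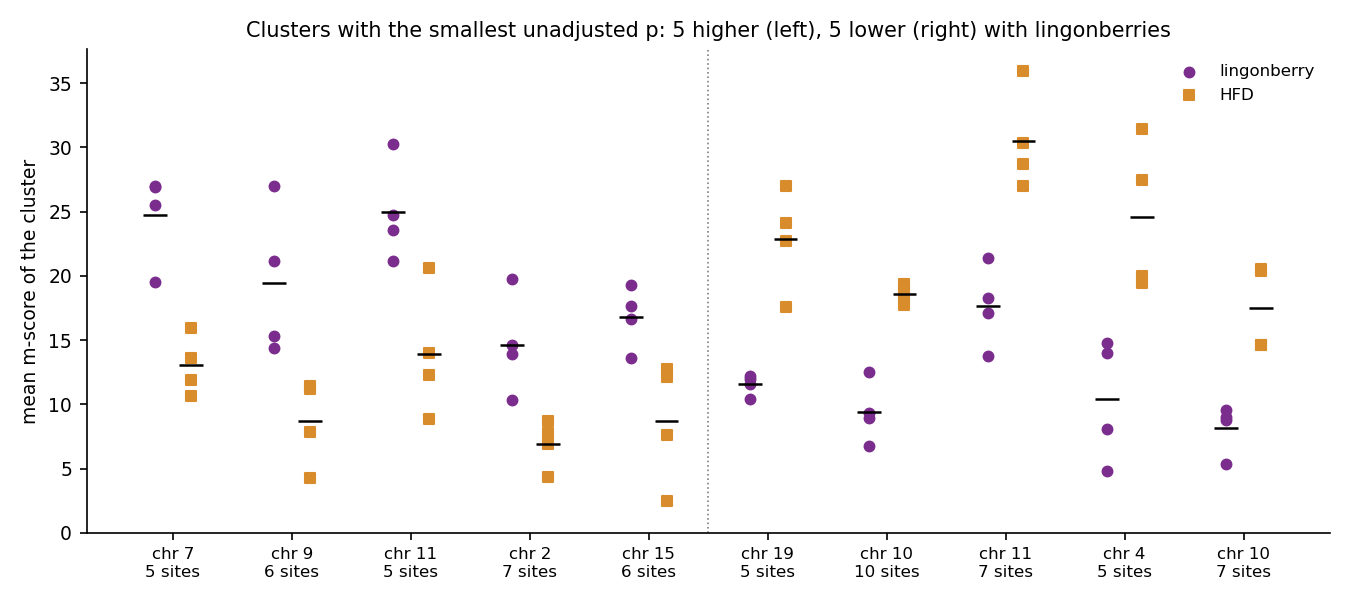
Mean m-score per liver (points) and per diet (bars) in the 10 low-signal clusters with the smallest unadjusted p, 5 higher (left of the dotted line) and 5 lower with lingonberries, labelled by chromosome and number of sites, lingonberry left of HFD in each pair. No pair overlaps, by the way they were chosen, and no adjusted p is below 0.604.

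Promoters were rare among the low-signal clusters. A RefSeq promoter window could be placed, by at least 4 CCGG sites in matching order and spacing on the gene's own chromosome, for 3371 autosomal genes, and 3284 of them fell in a cluster with at least 5 sites. Such a promoter lay in 6 of the 2358 low-signal clusters (0.2545%) and in 5 of the 2363 methylated ones (0.2116%), against 14.3% of intermediate, 22.04% of unmethylated and 44.8% of long clusters (20 sites or more). The match needs many CCGG sites close together, so it finds CpG-dense promoters only, and it finds fewer in clusters with few or sparse sites. The median ratio of observed to expected CpG was 0.637 in the 6 windows, 0.722 in the 5 of methylated clusters and 0.886 in those of unmethylated clusters.

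Both clusters of the germ-line list lay near the lower limit of the class, with means of 10.4 and 11.2 over the 8 livers. The Hormad1 cluster (mm9 chromosome 3, 95363293 to 95363628, 7 sites, spanning the start) scored 14.9, 7.98, 5.38 and 7.86 with lingonberries, against 10.2, 11.9, 14.1 and 10.7 with HFD. The groups overlapped, and the difference was -2.71 ± 2.24 (SE, limma adjusted p = 0.742). Of its 99 HpaII tags over 8 livers, 77 came from 1 site, 251 bp before the start, with an m-score of 51.9. The next site, 15 bases further on, the first CCGG of the printed window, was at 17.3, and the 4 sites from 176 bp before to 27 bp after the start were between 0 and 1.62. The window holds CACGTG, the E-box bound by many helix-loop-helix factors and found in 7.15% of all windows on either strand, and GGCGGGAA, an E2F-type motif found in 2.19%.

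The Dmrtb1 window is 1 of 2 in the table for this gene and not the one at the gene's annotated 5' end. Its cluster (mm9 chromosome 4, 107356096 to 107356921, 8 sites) scored 15.9, 11.2, 14.0 and 12.1 with lingonberries, against 3.57, 11.4, 10.8 and 10.3 with HFD. The lowest lingonberry liver lay below the highest HFD liver, so the groups overlapped, and the difference was 4.30 ± 2.23 (SE, limma, adjusted p = 0.617). Without an open site, its 8 sites ranged from 3.32 to 22.1, in contrast to the single open site of Hormad1.

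Lep is transcribed in fat tissue and not in normal hepatocytes. Its cluster (mm9 chromosome 6, 29010008 to 29010450, 5 sites, spanning the start) scored 23.1, 19.9, 11.4 and 24.4 with lingonberries, against 21.9, 13.3, 26.8 and 21.4 with HFD. The groups overlapped over most of their range, at 19.7 ± 5.86 and 20.8 ± 5.60 (SD, n = 4 each), with a difference of -1.14 ± 3.55 (SE, limma adjusted p = 0.942). The most open site, 63 bp before the start, had a mean of 42.0 with lingonberries and 52.3 with HFD, and the site 3 bp before it 25.0 and 27.8. The site 35 bp after the start was at 3.66 and 1.599, and the site 215 bp before it at 10.7 and 22.5. At the site 227 bp after the start the means were 17.1 and 0, on 5 tags in all. Shortly after the site 63 bp before the start, the printed window holds TTGCGCAA, a palindrome bound by C/EBP factors and present in 0.183% of all windows. The window also holds GGGCGG, the GC box, present in 35.7%.

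Of the RNA genes, the cluster of Gm16254 (mm9 chromosome 10, 7328430 to 7328816, 10 sites) scored 8.94, 12.5, 6.76 and 9.36 with lingonberries, against 18.99, 19.4, 17.7 and 18.4 with HFD. The groups were well apart, at 9.40 ± 2.38 and 18.6 ± 0.714 (SD, n = 4 each), with a difference of -9.22 ± 2.05 (SE, limma, adjusted p = 0.604), and of -0.61 ± 0.24 in log2 tags (adjusted p = 0.359). At its sites with at least 50 MspI tags, 209 and 30 bp before the start, the difference was 3.94, in the other direction. The other sites of the cluster are left out of that value. Its summed tags were 29, 25, 6 and 23 with lingonberries and 18.7, 22, 17.7 and 23 with HFD. Tags shared between sites touched 20% of its sites, whose surroundings hold the repeated unit named above, and the part of misplaced tags was not tested. The cluster also lies within the span of the protein-coding gene Lrp11, 19006 bp downstream of that gene's start.

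The last 2 promoters were Gm10863, another RNA gene, and Cdsn, which encodes the skin adhesion protein corneodesmosin. Gm10863 (mm9 chromosome 15, 78996306 to 78996609) averaged 17.4 ± 6.56 with lingonberries and 15.0 ± 6.04 with HFD (SD, n = 4 each; limma adjusted p = 0.865). Cdsn (mm9 chromosome 17, 35688657 to 35689215) averaged 21.9 ± 4.24 and 24.9 ± 11.2 (adjusted p = 0.877), and its window is not the one at the annotated 5' end. It is also the poorest in CpG of the 6, with an observed to expected ratio of 0.170, and has 1 open site, at 63.3, 90 bp before the start.

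**Figure D5:**
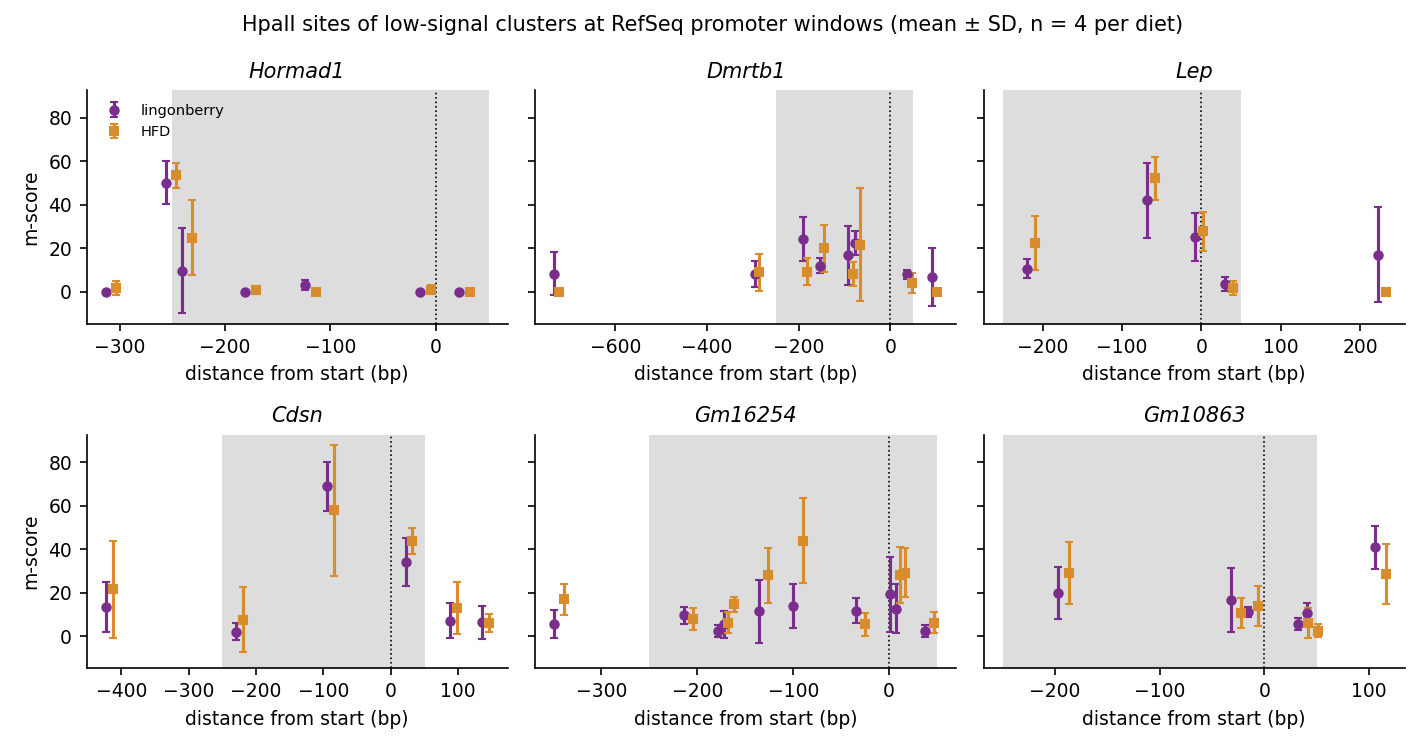
M-score of each HpaII site against its distance from the RefSeq start (dotted line) in the 6 low-signal clusters at placed promoters, as mean and SD (n = 4 per diet), lingonberry circles left of HFD squares, with the 300-base window in grey. Hormad1, Lep and Cdsn have a site with a mean of 47.2 or above over the 8 livers, and no site of the other 3 clusters lies above 34.7.

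The gene lists give the setting of these promoters. Of 44 germ-line genes, 6 had a placed promoter in a cluster: Hormad1 and Dmrtb1 in low-signal clusters, Mael in a methylated one (9.19), Ddx4 and Sycp2l in intermediate ones (48.6 and 72.3) and Ddx25 in an unmethylated one (82.1). No placed gene of the other lists was in a low-signal cluster. The 5 placed imprinted genes lay higher: Mcts2 at 58.1, Zrsr1 at 62.0, Grb10 at 72.6, Copg2 at 78.9 and Gnas at 79.8. Of the lipid metabolism list, only Pparg (71.1), the master regulator of fat cells, and Insig2 (77.2), which restrains sterol synthesis, could be placed. All 57 placed genes with symbols starting with Zfp and 5 genes of the methylation machinery were in intermediate, unmethylated or long clusters. So were the 4 with symbols starting with Hox: Hoxd9, Hoxd10, Hoxb3os and Hoxa11os. No clustered protocadherin and no hepatocyte gene of the lists was placed, so the liver label was not checked against its markers.

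Low-signal clusters were also looked for in gene bodies, and their number there cannot be set against that at promoters. A promoter had to match at least 4 CCGG sites within its short window, while a cluster could lie anywhere along a gene. Among 1707 genes whose 5' end was placed, the gene's length was used to ask which other clusters lay inside it. Of the 2352 low-signal clusters without a placed promoter, 133 (5.65%) lay inside 1 of 108 such genes, against 6.36% of methylated, 2.39% of intermediate and 1.22% of unmethylated clusters. They lay a median of 28115 bp downstream of the start, at 64.8% of the gene's length, with 20 in the first 25% of the gene's length and 48 in the last 25%. Methylated clusters inside genes lay at a median of 20573 bp and 71.1% of the gene's length. A position late in the gene was thus not particular to low-signal clusters. Unmethylated clusters inside genes lay nearer the start, at a median of 5131 bp. Exons and introns were not told apart.

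In 8 of these genes there were 3 low-signal clusters, and in 9 there were 2. The 8 are Cul9 (a cullin), Dock1 (an activator of the GTPase Rac), Gabbr2, Klhl29 (of the kelch-like family), Ksr2 (a scaffold of kinase signalling), Ppfia3 (a synaptic liprin), Trak1 (an adaptor of mitochondrial transport) and Trp73 (a p53-family transcription factor). In Trp73 the 3 clusters lay near each other, between 42844 and 52638 bp downstream of the start, and averaged 17.2, 20.4 and 22.5. In Ksr2 they were spread from 10728 to 216226 bp downstream and averaged 15.5, 10.9 and 19.2. Igf1r, the receptor of insulin-like growth factor 1, held 2, at 22.1 and 19.3. Clusters of any class without a placed promoter numbered 3 in Klhl29 and 4 in Cul9, Dock1 and Ksr2. They numbered 5 in Ppfia3, Trak1 and Igf1r, and 6 in Gabbr2 and Trp73. Longer genes can hold more clusters, and these genes were named for their number of clusters after the values were seen.

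Within gene bodies, 2 clusters had a site at 75 or above. They were in Cul9, 35162 bp downstream of the start, with a site at 75.9 in a cluster of 18.7, and in Foxp4, a forkhead transcription factor, 4224 bp downstream, with a site at 81.1 in a cluster of 21.97.

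The clusters with the most sites were on mm9 chromosome 15 at 85859370 to 85862574 and chromosome 13 at 55103849 to 55107828, with 19 sites each. The first scored 20.1, 17.7, 15.7 and 17.8 with lingonberries, against 16.1, 19.7, 13.1 and 20.8 with HFD, and the diets overlapped (limma adjusted p = 0.975). It had 3 sites above 50 and 5 without any tag in 8 livers, beside flanking sites at 61.0. The next were on chromosome 17 at 25518507 (18 sites, mean 16.9) and on chromosomes 15 at 78960267 and 5 at 143548528 (16 sites each, means 10.0 and 10.9), and none of the last 2 had a site above 50. Other clusters with at least 3 open sites, singled out after their values were seen, were on chromosome 4 at 135259387 (mean 24.5), chromosome 8 at 15041433 (17.7, with shared tags at 75% of its sites) and chromosome 9 at 44056490 (21.8) and 98764550 (22.3).

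The clusters with the most tags per site owed them to 1 site. On chromosome 13 at 107911826 to 107912735, 99.7% of the tags came from 1 of 5 sites, with 176 tags per site and sample on average, and 40% of the sites had shared tags. On chromosome 3 at 61962252 the top site held 98.02%, and on chromosome 19 at 61274562 it held 96.6%. MspI tags were high in these 3 clusters too, at 304, 225 and 96.8 per site. Their highest site scores were 71.5, 70.2 and 64.8, and their means over all sites were 20.04, 16.1 and 23.2. On chromosome 2 at 165101455, without shared tags, the top site held 78.5%, and the highest score was 83.2. On chromosome 6 at 149301980 the top site held 94.7%, with a score of 85.8 for the highest site.

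At the limits of the class the values ran on without a gap. The 3 clusters just inside the lower limit averaged 10.004, 10.01 and 10.013 and the 3 just outside 9.998, 9.987 and 9.98. Just inside the upper limit they averaged 24.973, 24.973 and 24.964, and just outside 25.003, 25.017 and 25.028. The class is a range of scores, and its clusters next to either limit resemble the neighbours beyond it.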

How the data were processed

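Liver DNA was profiled by HELP-tagging. Each deposited file holds, per the file headers, an m-score, used as a score from 0 to 100, and a value named conf, used as a signal that is never negative. The submitters' processing notes name CASAVA and mm9, and the aligner is not given in the sources used here. From the values, the score is the angle and the signal the length of the vector of scaled MspI and HpaII tags. HpaII tags recovered from them were whole (tolerance 0.02) at 96.1% to 97.0% of values above 0 per sample, and the rest were read as tags shared between sites. Clusters were compared with limma 3.58.1 (R 4.3.3, empirical Bayes with a mean trend, Benjamini-Hochberg over all 20674 clusters or 416344 sites) for the m-score and, separately, for tag sums as log2(tags per 1000000 + 0.5). limma was tested on simulated data. The clusters and gene lists were chosen with earlier results of these data known. Named clusters are the 5 with the smallest p in each direction, the 5 with the most sites, the 5 with the most tags per site, and 3 on each side of each limit. No mm9 annotation was used. The design allowed gene names only from an mm9 annotation: placing RefSeq GRCm38.p6 promoters by the spacing of CCGG sites was added after the data were seen, as were the motifs, and no coordinate was converted. Alternatives were the MspI minimum, the gap, the cluster value, shared tags, thinned libraries, pseudocount, scaling, tag minimum, the trend and each sample left out.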

Additional observations from a re-analysis of the deposited data

Results flagged for a closer look

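In all, 68 groups of 4 livers were examined for a liver far from the other 3. They came from the named clusters, without those at the class limits, and from values per liver over all low-signal clusters. In these, 3 were found, where chance gives about 1 in 20, or 3.4. All 3 were HFD livers. In the cluster on chromosome 15 at 78960267, 1 HFD liver scored 12.21, with the others between 10.42 and 10.64. In the cluster on chromosome 4 at 135259387, 1 HFD liver scored 29.72, with the others between 22.26 and 23.38. In the Dmrtb1 cluster, 1 HFD liver scored 3.567, with the others between 10.28 and 11.36.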

How the results depend on the processing

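No low-signal cluster or site passed an adjusted p of 0.05 in limma under any alternative run. The difference of the mean over low-signal clusters kept its sign, between -1.289 and -0.6618 without each sample in turn; it was -0.424 with 50 MspI tags per site and -1.37 with gaps up to 1000 bp. Clusters at an unadjusted p below 0.05 numbered 170, against 85 with 50 MspI tags (1274 clusters left), 44 with gaps up to 250 bp (625 clusters) and 498 with gaps up to 1000 bp (6942 clusters), and 160 to 216 without each sample. In log2 tags there were 158, against 96 with a mean of 10 tags or more (1791 clusters) and 133 to 173 without each sample. For sites there were 216, against 633 without a tag minimum, 28 with 80 tags and 210 to 253 without each sample. The fewer or more clusters and sites tested go with these counts. The median log2 difference was -0.19 with tags scaled to those in clusters, when that of all clusters was -0.02. Of 230 differences, over the 10 clusters with the smallest p and the other 5 at promoters, 218 kept their direction, 12 reversed and 0 were called. With 50 MspI tags the clusters on chromosomes 7 (at 87733994), 11 (at 68400100), 19 (at 38206883) and 10 (at 7328430) stood at -5.69, -6.21, 1.36 and 3.94, Dmrtb1 at -0.67 and Hormad1 at -0.906. These values rest only on the sites that pass. In Dmrtb1 that was the site 291 bp before the start, and in Hormad1 those 176 and 10 bp before it. With thinned libraries Dmrtb1 stood at 1.394. Cdsn stood at 1.496 without HFD replicate 3, Gm10863 at -0.137 with thinned libraries, -0.637 without lingonberry replicate 4 and -0.315 without HFD replicate 3, and Lep at 1.43 with gaps up to 1000 bp, 1.63 without lingonberry replicate 3 and 0.857 without HFD replicate 3. Without each sample in turn, Hormad1 ranged from -4.658 to -1.498, Dmrtb1 from 2.493 to 5.091, Cdsn from -7.575 to 1.496, Gm10863 from -0.637 to 4.286 and Lep from -3.657 to 1.63. The cause was not tested. No paired analysis was possible because the labels give no numbers or batches that tie samples of the 2 diets. The median standard error of a cluster's difference was 3.02, and the part of depth in it was not tested.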
